A study of Mus musculus with 48 samples.

Results

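Monomethylation of lysine 4 of histone H3 (H3K4me1) was compared between KO and WT in 3 skeletal populations, using the 6 H3K4me1 peak lists among the 48 samples of the series. The lists were taken by antibody and genotype alone, 3 from KO and 3 from WT, and held 710733 peaks in all. KO mice carried floxed Ptip alleles with the Col2a1-cre transgene (Ptip f/f;Col2a1-cre), and WT mice carried the same floxed alleles and no Cre (Ptip f/f). All mice were C57BL/6, and cells were taken from their limbs on postnatal day 3. SSC are the sorted skeletal stem cells. The stage labelled pBCSP holds pre-bone, cartilage and stromal progenitors, and BCSP stands for bone, cartilage and stromal progenitors. Each combination had 1 H3K4me1 library, so a pair of KO and WT lists has no replicate check, and populations are not replicates of each other. Cre is driven by the Col2a1 promoter, which is most active in cartilage-forming cells. Whether animals were pooled is not stated in the labels.

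H3K4me1 marks enhancers and the flanks of active promoters, where it surrounds a core that carries trimethylation (H3K4me3). At enhancers it is written mainly by the methyltransferases KMT2C and KMT2D. PTIP, the product of Paxip1 (Ptip), is a subunit of the complexes of these enzymes, as is the H3K27 demethylase KDM6A.

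Promoter windows from RefSeq (GRCm38.p6, 250 bases before to 50 after a start site) are shown for the promoters that rank highest by fold in each pattern of H3K4me1 calls, followed by 3 genes on which the results below turn. Capitals mark matches on either strand to motifs of AP-1 (TGANTCA), RUNX (TGTGGT), SOX (ACAATG), TEAD (GGAATG) or HIF (ACGTG). The promoters of Plb1 (chr5:32353330-32353629, plus strand), a phospholipase gene, and Nfix (chr8:84780033-84780332, minus strand), a transcription factor gene, lay wholly inside a peak in all 6 lists. The RUNX and TEAD matches of Plb1 overlap.
Plb1: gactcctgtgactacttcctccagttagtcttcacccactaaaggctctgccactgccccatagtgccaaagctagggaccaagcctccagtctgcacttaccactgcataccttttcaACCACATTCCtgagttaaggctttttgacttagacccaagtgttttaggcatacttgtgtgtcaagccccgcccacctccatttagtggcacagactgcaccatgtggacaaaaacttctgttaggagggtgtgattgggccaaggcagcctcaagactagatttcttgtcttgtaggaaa
Nfix: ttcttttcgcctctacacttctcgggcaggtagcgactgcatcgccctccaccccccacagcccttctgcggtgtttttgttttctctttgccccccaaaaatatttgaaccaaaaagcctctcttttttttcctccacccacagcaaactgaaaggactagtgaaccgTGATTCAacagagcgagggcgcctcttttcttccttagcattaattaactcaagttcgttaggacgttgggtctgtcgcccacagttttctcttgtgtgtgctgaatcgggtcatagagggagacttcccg
The promoters of Asap3 (chr4:136206115-136206414, plus strand) and Nthl1 (chr17:24632432-24632731, plus strand), a DNA glycosylase gene, lay wholly inside a peak in the 3 KO lists and had no covered base in the 3 WT lists. No motif was matched in the Asap3 window.
Asap3: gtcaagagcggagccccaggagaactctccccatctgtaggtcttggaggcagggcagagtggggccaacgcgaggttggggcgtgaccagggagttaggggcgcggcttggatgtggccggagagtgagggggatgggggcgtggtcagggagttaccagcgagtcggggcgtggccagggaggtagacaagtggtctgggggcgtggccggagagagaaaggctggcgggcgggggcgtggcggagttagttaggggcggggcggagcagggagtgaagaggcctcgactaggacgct
Nthl1: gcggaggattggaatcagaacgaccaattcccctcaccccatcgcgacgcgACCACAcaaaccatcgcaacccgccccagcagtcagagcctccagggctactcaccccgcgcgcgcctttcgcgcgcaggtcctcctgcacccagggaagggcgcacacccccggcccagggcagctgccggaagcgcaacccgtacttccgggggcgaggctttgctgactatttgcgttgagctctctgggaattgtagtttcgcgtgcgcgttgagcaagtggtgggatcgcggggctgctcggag
A promoter of Erg (chr16:95530316-95530615, minus strand), an ETS transcription factor gene, was the single window with the opposite pattern.
Erg: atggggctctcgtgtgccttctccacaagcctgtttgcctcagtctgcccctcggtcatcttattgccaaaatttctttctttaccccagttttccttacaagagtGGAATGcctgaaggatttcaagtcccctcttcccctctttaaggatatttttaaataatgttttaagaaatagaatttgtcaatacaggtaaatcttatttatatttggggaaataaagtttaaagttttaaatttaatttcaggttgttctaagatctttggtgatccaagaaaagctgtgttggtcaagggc
The windows of Paxip1 (chr5:27791501-27791800, minus strand), Matn1 (chr4:130944135-130944434, plus strand) and Hoxd13 (chr2:74667975-74668274, plus strand) had no covered base in any KO list or in WT SSC. In WT pBCSP and WT BCSP, 105 and 0 bases of the Paxip1 window were covered, 218 and 245 bases of the Matn1 window, and all 300 bases of the Hoxd13 window in both. The HIF matches of Hoxd13 are 1 palindrome read on both strands.
Paxip1: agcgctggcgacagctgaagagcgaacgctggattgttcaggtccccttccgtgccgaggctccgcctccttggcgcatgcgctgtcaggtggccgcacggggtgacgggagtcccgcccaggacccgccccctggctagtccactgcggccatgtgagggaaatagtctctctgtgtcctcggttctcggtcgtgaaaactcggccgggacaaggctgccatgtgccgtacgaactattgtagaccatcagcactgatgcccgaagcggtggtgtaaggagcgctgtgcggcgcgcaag
Matn1: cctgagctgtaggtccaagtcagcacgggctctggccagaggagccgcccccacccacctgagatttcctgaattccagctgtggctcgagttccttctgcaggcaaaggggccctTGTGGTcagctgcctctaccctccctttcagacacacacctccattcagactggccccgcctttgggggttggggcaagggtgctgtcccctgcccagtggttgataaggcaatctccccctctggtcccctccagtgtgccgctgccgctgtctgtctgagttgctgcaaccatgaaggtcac
Hoxd13: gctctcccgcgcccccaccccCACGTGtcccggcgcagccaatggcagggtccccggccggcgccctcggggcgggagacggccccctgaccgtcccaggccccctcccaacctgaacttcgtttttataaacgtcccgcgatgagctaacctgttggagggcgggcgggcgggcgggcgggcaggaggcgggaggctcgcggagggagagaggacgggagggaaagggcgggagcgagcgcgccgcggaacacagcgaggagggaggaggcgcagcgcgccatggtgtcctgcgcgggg

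The targeted gene was examined first. Paxip1 RNA, in counts scaled to library size (CPM), was 0.352 and 0 CPM (KO SSC), 0.563 and 0.0876 CPM (KO pBCSP), 3.45 and 0.783 CPM (KO BCSP), against 13.7 and 11.7 CPM (WT SSC), 14.5 and 7.46 CPM (WT pBCSP), 13.6 and 7.35 CPM (WT BCSP). Every KO library was below every WT library. Upstream of the Paxip1 start site, a site at chr5:27791696-27793144 (GRCm38, outside any protein-coding gene span) was called in no KO list and in all 3 WT lists, as 915, 1192 and 630 bp in WT SSC, pBCSP and BCSP. Among the sites called in WT only and lying within 50 kb of a start site, it ranked highest by fold. H3K4me3 peaks covered 831, 672 and 957 bp of the same site in KO SSC, pBCSP and BCSP, against 768, 928 and 827 bp in WT, so this stretch was marked by H3K4me3 in both genotypes. Where the floxed sequence lies was not analysed here.

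H3K4me1 covered more of the genome in KO than in WT in each population. The lists held 115704 peaks in KO SSC, 137117 peaks in KO pBCSP and 148530 peaks in KO BCSP, against 75277 peaks in WT SSC, 120792 peaks in WT pBCSP and 113313 peaks in WT BCSP. They covered 165 Mb in KO SSC, 210.2 Mb in KO pBCSP and 217 Mb in KO BCSP, against 85.5 Mb in WT SSC, 172 Mb in WT pBCSP and 141 Mb in WT BCSP. The log2 ratio of covered length was 0.95 in SSC, 0.29 in pBCSP and 0.62 in BCSP, with a mean of 0.62 ± 0.33 (SD over 3 populations). The smallest gap was in pBCSP and the largest in SSC, where the WT list was the shortest of the 6. An exact paired permutation test over the 3 pairs (two-sided sign flips) gave p = 0.25, the smallest it allows, so this design cannot reach the 0.05 level for any ratio of this kind.

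**Figure D1:**
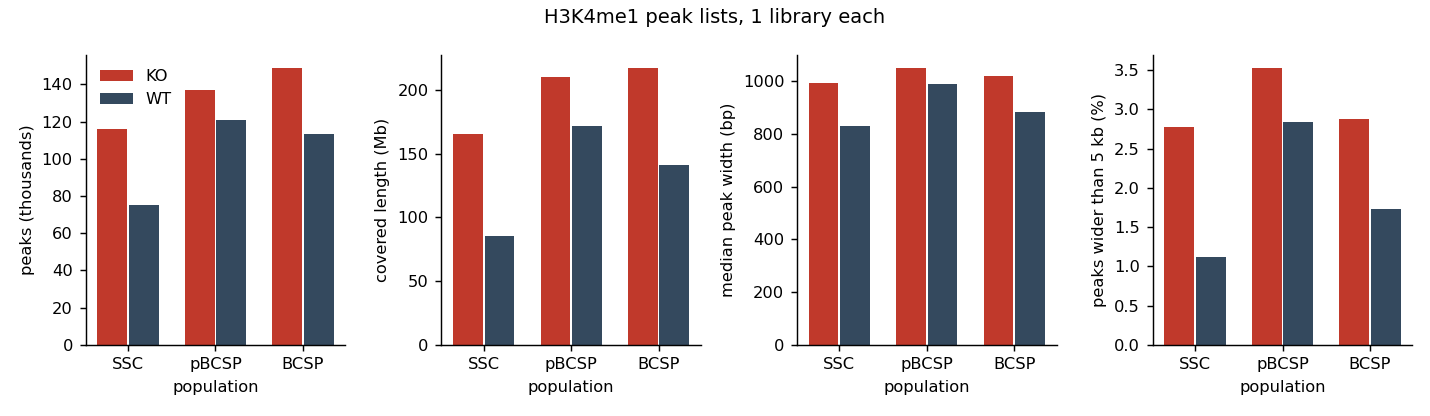
Bars give 4 measures of each H3K4me1 list (1 library each) by population, KO left of WT: peaks, covered length in Mb, median peak width in bp and the share of peaks wider than 5 kb in percent. KO is higher than WT in every panel, and the gap is widest in SSC, with 165 Mb covered in KO and 85.5 Mb in WT.

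The lists also differ in the weakest enrichment that was called. Fold is the authors' own enrichment of each peak, used here to rank and filter peaks within a list. Its 1st percentile was 2.53 in KO SSC, 2.37 in KO pBCSP and 2.34 in KO BCSP, against 2.75 in WT SSC, 2.56 in WT pBCSP and 2.74 in WT BCSP, lower in KO in each population. Among peaks with a fold of at least 3, the mean log2 ratio of peak number was -0.044, against 0.40 over all peaks, while that of covered length was 0.40. The read depth of the ChIP libraries is unknown from the lists, and its part in the list sizes was not tested.

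Peaks were wider in KO. The median width was 995 bp in KO SSC, 1049 bp in KO pBCSP and 1022 bp in KO BCSP, against 829 bp in WT SSC, 989 bp in WT pBCSP and 883 bp in WT BCSP. Peaks over 5 kb made up 2.78%, 3.52% and 2.87% of the KO lists in SSC, pBCSP and BCSP, against 1.12%, 2.84% and 1.73% of the WT lists. To compare the same places, peaks were paired where 1 KO and 1 WT peak of a population overlapped each other and no other peak. Such pairs numbered 56819 in SSC, 89138 in pBCSP and 84163 in BCSP. The share of pairs in which the KO peak was wider was 82.1% in SSC, 62.3% in pBCSP and 75.4% in BCSP. The median width was 1381, 1256 and 1313 bp in KO SSC, pBCSP and BCSP, against 852, 1081 and 935 bp in WT, and the median log2 ratio of the pairs was 0.54 in SSC, 0.14 in pBCSP and 0.35 in BCSP. Where the WT peak was already over 5 kb, the median ratio was 0.11, 0.0053 and 0.056 in SSC, pBCSP and BCSP. These pairs were chosen for a wide WT peak, which lowers the ratio by that choice, and hold 408, 1892 and 1049 of the 843, 3436 and 1965 WT peaks over 5 kb, so the ratio does not describe all of the widest WT domains. Peaks over H3K4me3 of their own list's genotype and population had a median width of 1451, 1529 and 1559 bp in KO SSC, pBCSP and BCSP, against 990, 1345 and 1146 bp in WT. Peaks away from H3K4me3 had 817, 945 and 880 bp in KO, against 754, 881 and 791 bp in WT, so KO was wider in both classes.

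**Figure D2:**
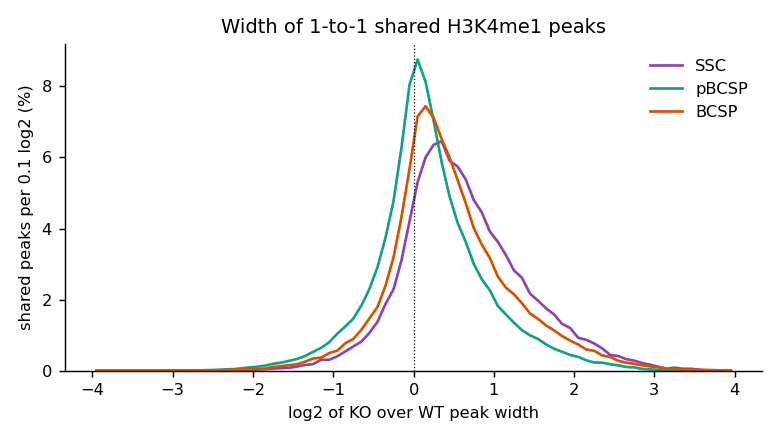
Lines give the share of paired H3K4me1 peaks (in percent) by the log2 ratio of KO over WT peak width, for each population. All 3 distributions lie to the right of 0 on balance, with medians of 0.54 in SSC, 0.14 in pBCSP and 0.35 in BCSP.

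The widest single peaks are named leaving out chromosome 18, for which no start sites were used here. In KO SSC the widest was 43033 bp over Nfix (chr8:84719184-84762216), against 24228 bp over Iqsec1 (chr6:90697976-90722203) in WT SSC. In KO pBCSP it was 60309 bp over Ski (chr4:155160210-155220518), a repressor of TGF-beta signalling, against 52718 bp over Fndc3b (chr3:27634730-27687447) in WT pBCSP. In KO BCSP it was 50044 bp over Lyl1 and Nfix (chr8:84704191-84754234), against 36912 bp over Iqsec1 (chr6:90695364-90732275) in WT BCSP. The 500 widest peaks were shared in part. Of those in KO, 45.2%, 58.8% and 47.8% overlapped one of the 500 widest WT peaks in SSC, pBCSP and BCSP, and of those in WT 50%, 60.4% and 49.8% overlapped one in KO.

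The fold at paired peaks had no common direction. The median fold was 3.53 in KO and 3.31 in WT in SSC, where KO was higher. It was 3.30 in KO and 3.51 in WT in pBCSP, and 3.36 in KO and 3.52 in WT in BCSP, where KO was lower. Ranked over the same pairs, KO and WT fold had a Spearman correlation across peaks of 0.37 in SSC, 0.57 in pBCSP and 0.50 in BCSP. Peaks of a list share their library and are not independent, so this is a description. Of the tenth of pairs with the highest KO fold, 27.2% in SSC, 43.2% in pBCSP and 37.8% in BCSP also ranked in the tenth with the highest WT fold.

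Most WT peaks were also called in KO, and fewer KO peaks in WT. The share of KO peaks that overlapped a WT peak was 55.0%, 74.0% and 64.3% in SSC, pBCSP and BCSP. The share of WT peaks that overlapped a KO peak was 92.8%, 87.3% and 90.5% in the same order. KO peaks with no WT partner had a median width of 640, 569 and 613 bp and a median percentile of fold within their own list of 29.9, 22.3 and 26.1 in SSC, pBCSP and BCSP. WT peaks with no KO partner had 453, 460 and 436 bp and percentiles of 25.4, 20.5 and 22.5. Peaks called in 1 genotype were thus narrow and of low rank in KO and WT alike. The base overlap (bases shared over bases in either list) of KO with WT was 0.44 in SSC, 0.60 in pBCSP and 0.52 in BCSP. WT SSC stood apart, with 0.31 to 0.46 against every other list, while the other pairs of lists had 0.51 to 0.62. A short list limits this measure. Of WT SSC bases, 83.0% (in WT BCSP) to 89.5% (in WT pBCSP) lay inside each other list.

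Merged over the 6 lists, H3K4me1 formed 177859 sites, of which 2418 were called in 3 KO and 0 WT lists, 146 in 0 KO and 3 WT lists, and 52028 in all 6. The median width was 1080 bp for sites in KO only, 819.5 bp for those in WT only and 2486 bp for those in all lists. H3K4me3 of any H3K4me3 list overlapped 15.7% of the sites in KO only, 6.16% of those in WT only and 64.2% of those in all lists. Within 1 kb of a protein-coding start site lay 4.16%, 0.725% and 9.79% of these classes in the same order. Over all sites, 5.79% lay within 1 kb and 37.2% beyond 100 kb, and 29.0% overlapped H3K4me3. Beyond 100 kb lay 39.8% of the sites in KO only, 38.4% of those in WT only and 29.2% of those in all lists. Sites called in 1 genotype were thus farther from start sites than those in all lists, but near all sites in the share beyond 100 kb. The counts of sites called in 1 genotype turned with the peak threshold. With every list reduced to the length of the shortest by fold there were 942 sites in KO only and 667 in WT only, and with a fold of at least 3 there were 425 in KO only and 913 in WT only.

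The highest-ranked sites in KO only lay beside the start sites of Gosr1 (chr11:76763736-76764074), a Golgi transport gene, and Pi4k2b (chr5:52741024-52741557), a lipid kinase gene. The Gosr1 site had 307, 292 and 300 bp in KO SSC, pBCSP and BCSP, and the Pi4k2b site 418, 493 and 363 bp, with no peak in WT. In WT only, after Paxip1, the highest was a site 17.2 kb from the start of Pou2af1 (chr9:51196082-51196918), with no peak in KO and 566, 688 and 633 bp in WT SSC, pBCSP and BCSP. Among sites in all lists, the highest lay inside Cap1 (chr4:122872980-122885508), an actin regulator gene, with 10495, 11136 and 11569 bp in KO SSC, pBCSP and BCSP, against 6676, 9296 and 8420 bp in WT. The next lay 11.4 kb from the start of Igf2r (chr17:12778018-12784255), with 6011, 5801 and 6238 bp in KO, against 4971, 5384 and 5753 bp in WT. Both shared sites were wider in KO in each population.

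Over the whole lists, KO peaks lay less often at start sites in each population, and this difference depended on the peak threshold. The share of peaks centred within 1 kb of a protein-coding start site was 8.77% in KO SSC, 7.61% in KO pBCSP and 7.20% in KO BCSP, against 9.08% in WT SSC, 8.72% in WT pBCSP and 9.17% in WT BCSP. Peaks beyond 100 kb made up 32.0%, 34.6% and 35.7% of the KO lists in SSC, pBCSP and BCSP, against 30.3%, 32.7% and 31.7% of the WT lists. Peaks over H3K4me3 made up 38.4%, 22.6% and 28.8% in KO, against 39.0%, 28.0% and 31.9% in WT. Each share was taken over the H3K4me3 list of the same genotype and population. Those held 42399, 25468 and 38500 peaks in KO SSC, pBCSP and BCSP, against 33510, 28612 and 32132 in WT. The part of these sizes in the shares was not tested. In H3K4me1 lists of equal number by fold, the mean difference was 3.58 percentage points over H3K4me3 and 0.00316 points within 1 kb, against -3.04 and -1.13 points over the whole lists. With a -log10 q of at least 5, the difference within 1 kb was -6.98, -2.65 and -8.90 points in SSC, pBCSP and BCSP, lower in KO in each. The SSC value rests on few WT peaks, since -log10 q in the WT SSC list had a median of 1.73 and a maximum of 6.90. In the fifth of each list with the highest fold, 12.9%, 11.2% and 10.3% of KO peaks lay within 1 kb in SSC, pBCSP and BCSP, against 10.03%, 12.2% and 14.6% of WT peaks. In that class KO was higher in SSC and lower in pBCSP and BCSP.

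Around start sites with H3K4me3, H3K4me1 formed a shoulder on each side and a dip at the start site in every list, and all of these were more often covered in KO. At the start site, 29.7%, 32.8% and 32.2% were covered in KO SSC, pBCSP and BCSP, against 10.004%, 26.4% and 19.5% in WT. The downstream shoulder reached 66.5%, 72.9% and 68.9% in KO, against 42.1%, 69.6% and 62.5% in WT. The upstream shoulder lay 500 bp before the start site in the 3 KO lists and reached 53.0%, 60.3% and 59.1%, against 800, 600 and 600 bp and 25.3%, 55.2% and 46.2% in WT. KO was also higher away from these start sites. At 5 kb after them 16.2%, 18.8% and 18.2% were covered in KO, against 8.20%, 15.6% and 12.7% in WT. At 5 kb before them 9.11%, 10.4% and 10.2% were covered in KO, against 4.48%, 9.01% and 7.55% in WT. At start sites without H3K4me3, 7.08%, 13.9% and 10.6% were covered in KO, against 4.23%, 11.5% and 8.45% in WT. In turn, H3K4me1 overlapped 91.3%, 96.1% and 95.3% of the H3K4me3 peaks in KO SSC, pBCSP and BCSP, against 76.1%, 94.4% and 89.5% in WT.

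**Figure D3:**
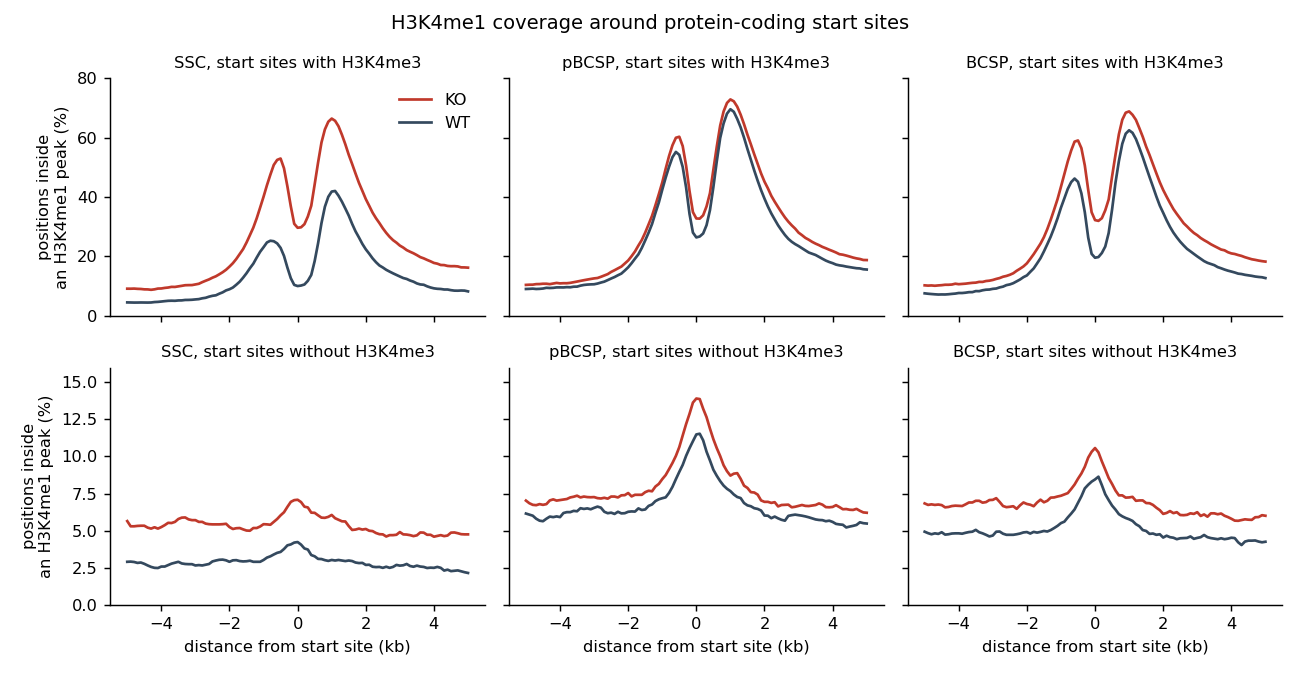
Lines give the percent of positions inside an H3K4me1 peak by distance from protein-coding start sites (negative is upstream), KO and WT, by population, for start sites with and without H3K4me3. With H3K4me3, the KO line lies above the WT line at the start site in each population, at 29.7% in KO SSC and 10.004% in WT SSC. It also lies above the WT line at both ends of the plotted range.

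Promoters covered in every KO list and no WT list were rare. Of 21262 promoter windows, 78 were of this kind, 1 (Erg, above) of the opposite kind, and 785 lay wholly inside a peak in all 6 lists. The median number of CpG was 18 in KO-only windows, 7 in windows covered in all lists, 7 in those covered in none, 17 in the 9125 windows of any other pattern and 13 in every window, so KO-only windows were close to the windows of other patterns in CpG. An AP-1 match was held by 5.13% of KO-only windows, 9.94% of those covered in all lists and 6.99% of every window. For the other motifs, the share in KO-only windows and in every window was 12.8% and 15.0% (RUNX), 12.8% and 11.001% (SOX), 5.13% and 13.6% (TEAD), 23.1% and 20.9% (HIF). A match describes the letters of the window and not binding.

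Genes were compared by the H3K4me1 length inside the gene span and 10 kb on each side. A gene was called where the KO over WT ratio, with 0.5 kb added to both, was at least 1.5-fold in 1 direction in each of the 3 populations. Of 21883 protein-coding genes, 1732 were called higher in KO (7.91%) and 2 lower (0.00914%). The lower ones were Wfdc15b and Prss32, looked up after their values were seen. Wfdc15b had 0.855, 1.84 and 0.333 kb in KO SSC, pBCSP and BCSP, against 2.29, 5.51 and 1.70 kb in WT, and Prss32 had 0.179, 0.169 and 0 kb in KO, against 0.778, 1.11 and 0.291 kb in WT. The median log2 ratio of all genes was 0.75 in SSC, 0.12 in pBCSP and 0.33 in BCSP, and the genes below are read against this shift. With each length divided by the total of its list, 355 genes (1.62%) were higher and 61 (0.279%) lower in KO. The median was then 0 in each population, a value that windows with no peak in either list also take.

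Among the called genes with the largest ratios and at least 5 kb covered were Gria3, Hoxd11, Malrd1 and Pax7. Gria3 (chrX:41400819-41678601), a glutamate receptor subunit gene, had 0.726, 4.49 and 11.3 kb in KO SSC, pBCSP and BCSP, against 0, 0 and 0.435 kb in WT. Malrd1 (chr2:15526479-16255557) had 2.90, 8.10 and 13.2 kb in KO, against 0, 2.83 and 1.54 kb in WT. Both were higher in KO in each population, which the call requires. In lists of equal number by fold, the mean log2 ratio of Gria3 was 0, against 2.76 over the whole lists, and Gria3 was not called. That of Malrd1 was 1.77, against 2.29, and Malrd1 was called in both. Gria3 is X-linked. The X chromosome held 1.09%, 1.47% and 1.67% of covered length in KO SSC, pBCSP and BCSP, against 0.484%, 1.25% and 0.905% in WT. On the Y chromosome lay 4, 8 and 10 peaks in KO, against 0, 4 and 0 in WT. Of X-linked genes 11.6% were called higher, against 7.84% of autosomal genes, and by share of the list 5.28% against 1.47%. The median of the mean log2 ratio went the other way, at 0.35 for X-linked and 0.45 for autosomal genes. The part of X dosage in this was not tested.

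Of 273 genes in 21 lists, 20 were called higher in KO, or 7.33% against 7.91% of all genes, so the share is near the background. In lists of equal number by fold, 8 were called higher, against 4.14% of all genes. Of these, Ly6a, Thy1, Hey2 and Actn2 were also called over the whole lists, and Prrx1, Pgk1, Emcn and Foxd3 were not. Limb and Hox genes, which pattern the limb, had 4 called members of 17 (Hoxd13, Hoxd12, Hoxd11 and Hoxa13). The median log2 ratio of this list was 1.91 in SSC, 0.38 in pBCSP and 0.90 in BCSP, beside 0.75, 0.12 and 0.33 over all genes. Hoxd13 (chr2:74668225-74671603), which acts in digit formation, had 10.9, 11.8 and 9.37 kb in KO SSC, pBCSP and BCSP, against 0.798, 5.88 and 3.18 kb in WT. All 3 KO values were above all 3 WT values, as in 3 of the 17 genes of this list and 5003 of the 21883 protein-coding genes. The Hoxd13 promoter window printed above was nonetheless covered in 2 WT lists and no KO list. Hoxd11 (chr2:74679558-74687016) had 11.7, 18.6 and 8.97 kb in KO, against 0, 9.80 and 2.34 kb in WT, and Hoxa13 (chr6:52258853-52260880) had 9.49, 16.3 and 9.41 kb in KO, against 2.15, 4.43 and 2.44 kb in WT. The mean log2 ratio was 1.84 ± 1.15 for Hoxd13, 2.41 ± 1.95 for Hoxd11 and 1.81 ± 0.089 for Hoxa13 (SD over 3 populations). In lists of equal number it was 0.67, 1.104 and, turned round, -0.88, and no member was called. The windows of the Hoxd genes overlap, so their calls share sequence.

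Hoxd13 RNA was low, with 4.65 and 0.560 CPM (KO SSC), 0.688 and 1.66 CPM (KO pBCSP), 1.26 and 1.81 CPM (KO BCSP), against 0 and 0.593 CPM (WT SSC), 0 and 0.906 CPM (WT pBCSP), 0.153 and 1.31 CPM (WT BCSP). H3K4me3 over the Hoxd13 window covered 22.6, 17.4 and 18.8 kb in KO SSC, pBCSP and BCSP, against 16.3, 11.6 and 12.8 kb in WT. Both marks were longer in KO in each population.

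Stromal progenitor genes had 3 called members of 15 (Lepr, Twist2 and Ly6a), beside 7.91% of all genes, with median log2 ratios of 1.08 in SSC, 0.35 in pBCSP and 0.50 in BCSP. Lepr, the leptin receptor and a marker of marrow stromal cells, had 4.08, 6.16 and 6.24 kb in KO SSC, pBCSP and BCSP, against 0, 1.85 and 1.87 kb in WT. Twist2, a mesenchymal transcription factor, had 9.65, 18.9 and 21.3 kb in KO, against 5.84, 11.1 and 11.3 kb in WT. Prrx1, a factor of limb mesenchyme, had 33.9, 49.3 and 48.8 kb in KO, against 11.8, 36.0 and 31.6 kb in WT. Lepr was higher in every KO list than in any WT list, as were 4 of the 15 genes of this list and 5003 of the 21883 protein-coding genes. Prrx1 was not called because its ratio in pBCSP was under 1.5. In lists of equal number Lepr and Twist2 were not called, with mean log2 ratios of 1.84 and 0.70, while Prrx1 was called, with 0.98. Pdgfra, a growth factor receptor of mesenchyme, had 18.2, 21.7 and 19.5 kb in KO, against 11.6, 18.6 and 15.1 kb in WT, and was not called. RNA of this list had median log2 differences (KO minus WT, on the log2(CPM + 1) scale) of -0.54, -0.73 and -1.32 in SSC, pBCSP and BCSP over 15 genes, beside -0.20, -0.083 and -0.10 over 12215 genes. Without KO SSC replicate 2, which had 13987 genes with a count while the other RNA libraries had 20965 to 23831, the SSC value was -0.10.

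Cartilage matrix genes, the secreted products of chondrocytes, had the lowest median ratio of the lists, and none of 19 was called in either direction. The median log2 ratio was 0.35 in SSC, -0.38 in pBCSP and -0.20 in BCSP. In KO pBCSP 17 of 19 had a shorter covered length than in WT, against 21.0% of all genes and 27.5% of the 2077 genes with at least 25% of their window covered. In KO BCSP 13 of 19 were shorter, against 9.42% and 11.9%, and in KO SSC 2 of 19, against 2.12% and 0.53%. The list thus split by population, with KO longer in SSC and shorter in the progenitors. Divided by list totals, the median was -0.56 in SSC, -0.65 in pBCSP and -0.81 in BCSP. The 2077 genes with at least 25% covered had -0.18, -0.16 and -0.34 in the same order. By this measure 5 members (Col9a1, Col9a2, Matn1, Hapln1 and Cnmd) were called lower in KO, against 0.279% of all genes and 0.770% of those 2077.

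**Figure D4:**
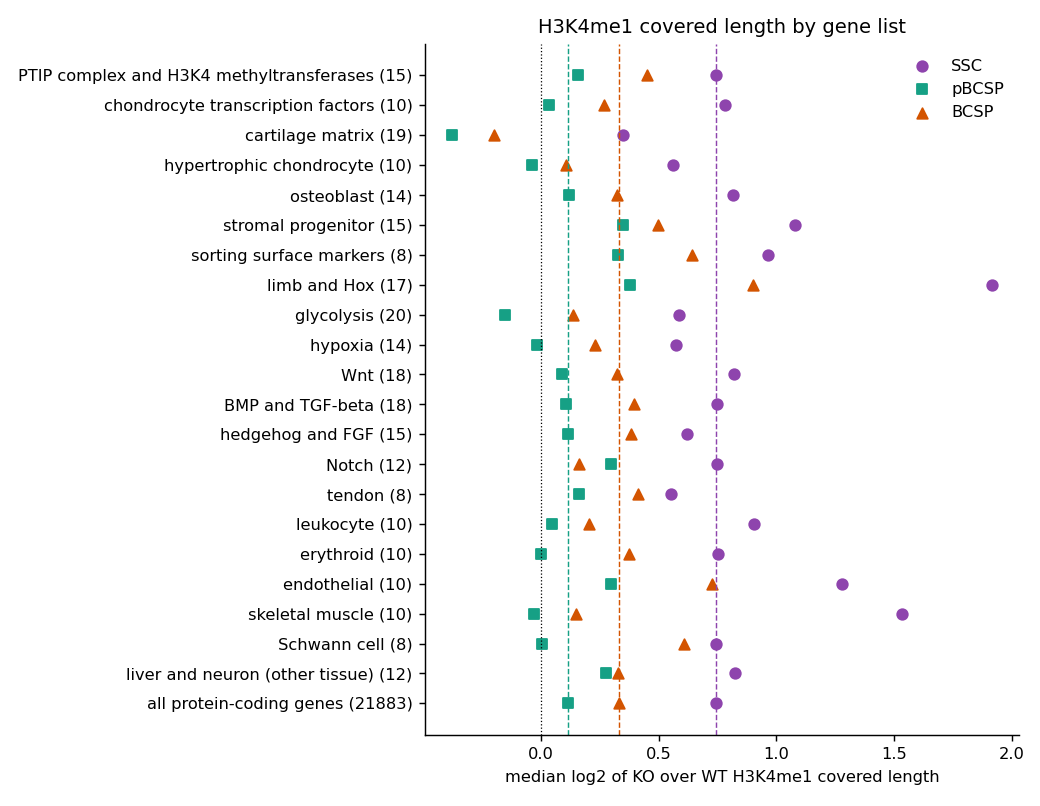
Points give, for each gene list, the median log2 ratio of KO over WT H3K4me1 covered length in each population, and dashed lines the median of all protein-coding genes. Cartilage matrix lies left of the lines in all 3 populations (0.35 in SSC, -0.38 in pBCSP and -0.20 in BCSP), and limb and Hox lies to the right (1.91 in SSC, 0.38 in pBCSP and 0.90 in BCSP).

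Matn1 (chr4:130944385-130955476), encoding matrilin-1 of cartilage, had 5.25, 2.71 and 2.34 kb in KO SSC, pBCSP and BCSP, against 6.35, 4.61 and 5.42 kb in WT, and was lower in KO in each population. Col9a1 (chr1:24177589-24252738), encoding a chain of collagen IX and chosen after its values were seen, had 62.2, 35.8 and 28.6 kb in KO, against 51.9, 57.2 and 48.9 kb in WT. Col2a1 (chr15:97975602-98004724), the main cartilage collagen and the source of the Cre promoter, had 28.3, 25.6 and 12.7 kb in KO, against 21.6, 32.3 and 20.1 kb in WT. Acan (chr7:79053226-79115099), encoding aggrecan, had 29.2, 26.9 and 22.1 kb in KO, against 26.1, 33.1 and 25.4 kb in WT. Col9a1, Col2a1 and Acan were higher in KO SSC and lower in KO pBCSP and KO BCSP than in WT. H3K4me3 over Acan covered 15.2, 6.44 and 6.86 kb in KO SSC, pBCSP and BCSP, against 18.4, 10.6 and 11.4 kb in WT, lower in KO in each population. It was lower in each over Col2a1 too. Over Col9a1 it was higher in KO SSC and lower in KO pBCSP and KO BCSP. Over Matn1 it went the other way, with 3.459, 0 and 1.585 kb in KO, against 1.695, 0 and 0 kb in WT. Over the list, H3K4me3 had median log2 ratios of 0.25 in SSC, -0.20 in pBCSP and -0.14 in BCSP, beside 0.15, 0 and 0.066 over all genes.

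**Figure D5:**
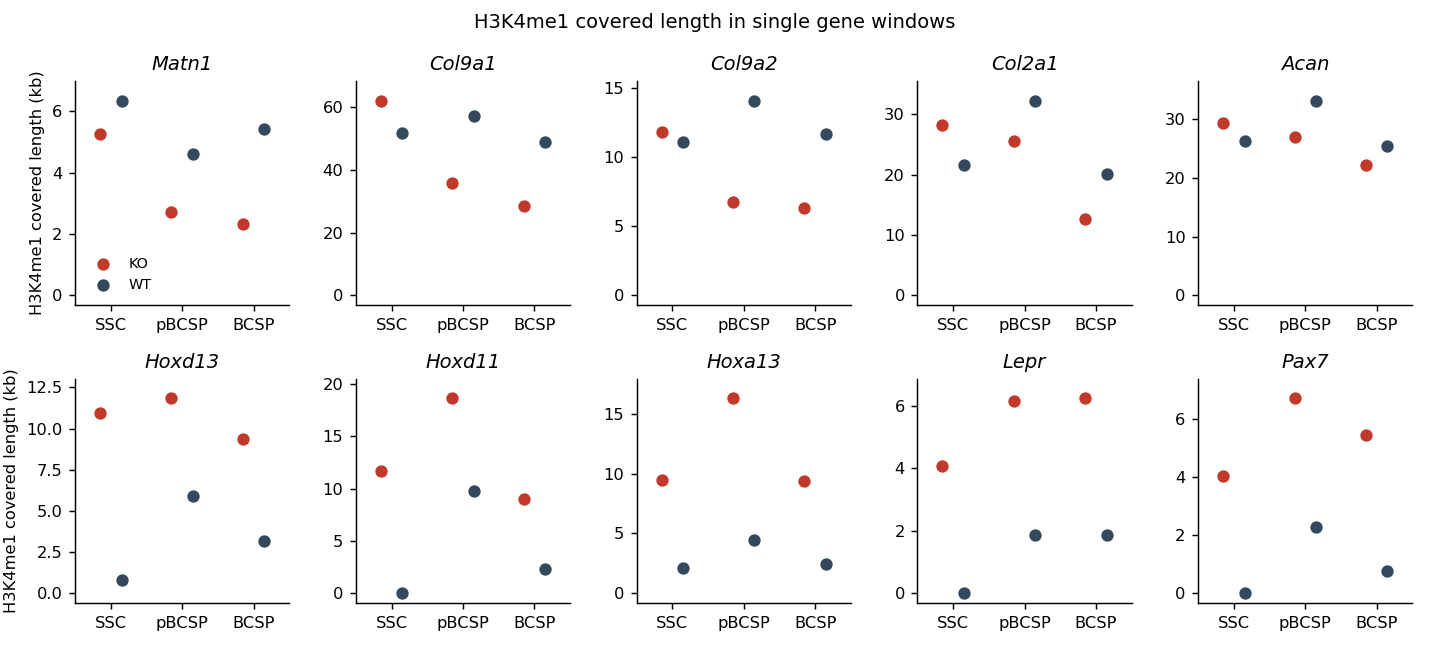
Points give H3K4me1 covered length in kb inside single gene windows in the 6 lists, KO left of WT within each population, 1 library each. In pBCSP and BCSP the cartilage genes shown are lower in KO (Matn1: 2.71 and 2.34 kb in KO, 4.61 and 5.42 kb in WT). Hoxd13, Hoxd11, Hoxa13, Lepr and Pax7 were called genes, so they are higher in KO in each population by the rule of the call.

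RNA of the cartilage matrix list was higher in KO. Its median log2 difference was 0.77, 1.05 and 1.57 in SSC, pBCSP and BCSP. In the same order 15, 17 and 17 of 19 genes were higher in KO, against 40.2%, 44.5% and 43.8% of all genes. Matn1 RNA was 2656 and 6469 CPM (KO SSC), 3556 and 4514 CPM (KO pBCSP), 2456 and 6077 CPM (KO BCSP), against 1094 and 564 CPM (WT SSC), 439 and 441 CPM (WT pBCSP), 473 and 386 CPM (WT BCSP). All 6 KO libraries were above all 6 WT libraries, whereas H3K4me1 over Matn1 was shorter in KO. In bulk samples, more cells of a type and more RNA per cell cannot be told apart.

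Chondrocyte transcription factors had no called member of 10 and median log2 ratios of 0.78 in SSC, 0.036 in pBCSP and 0.27 in BCSP. Sox9, which specifies chondrocytes, had 9.12, 9.77 and 9.90 kb in KO SSC, pBCSP and BCSP, against 8.50, 9.21 and 8.49 kb in WT, a small difference beside the shift of all genes. In the hypertrophic list 1 of 10 was called, beside 7.91% of all genes. It was Col10a1, the collagen of hypertrophic cartilage, with 2.82, 2.36 and 2.06 kb in KO, against 1.18, 0.861 and 0.991 kb in WT. Its mean log2 ratio of 0.95 turned to -0.74 in lists of equal number. In the osteoblast list 1 of 14 was called, beside the same 7.91%. It was the X-linked Phex, a regulator of mineralisation, with 12.8, 16.6 and 21.0 kb in KO, against 3.23, 9.78 and 9.84 kb in WT. Runx2, which drives osteoblast formation, had 88.2, 56.2 and 66.1 kb in KO, against 40.3, 44.4 and 53.7 kb in WT. Sp7, another osteoblast factor, had 13.2, 9.10 and 10.04 kb in KO, against 8.04, 9.70 and 11.9 kb in WT, and Col1a1, the bone collagen, had 28.7, 32.8 and 32.6 kb in KO, against 14.7, 32.0 and 28.7 kb in WT. These 3 genes were higher in KO SSC than in WT SSC. In pBCSP and BCSP Runx2 and Col1a1 were higher in KO by less, and Sp7 was lower in KO.

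In the list of the PTIP complex and H3K4 methyltransferases 1 of 15 was called, beside 7.91% of all genes. It was Kmt2c, with 11.8, 18.5 and 19.1 kb in KO SSC, pBCSP and BCSP, against 3.88, 9.78 and 10.2 kb in WT. Kmt2d had 9.46, 8.30 and 8.74 kb in KO, against 5.45, 8.28 and 6.50 kb in WT, and Kdm6a had 8.46, 11.9 and 12.2 kb in KO, against 6.17, 14.3 and 10.04 kb in WT. Neither was called. Paxip1 had 0, 0.671 and 1.66 kb in KO, against 1.80, 2.45 and 1.69 kb in WT, lower in KO SSC and KO pBCSP and about equal in BCSP.

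Glycolysis genes, which turn glucose to pyruvate and lactate, had no called member of 20. In KO SSC, pBCSP and BCSP 0, 16 and 8 of them were shorter than in WT, against 2.12%, 21.0% and 9.42% of all genes. Ldha, encoding lactate dehydrogenase, had 6.99, 8.17 and 6.54 kb in KO SSC, pBCSP and BCSP, against 5.29, 8.23 and 7.38 kb in WT, and Pgk1, a kinase of the pathway, had 3.33, 3.99 and 3.87 kb in KO, against 1.61, 3.70 and 3.31 kb in WT. RNA of this list was higher in KO in 17, 19 and 17 of 19 genes in SSC, pBCSP and BCSP, against 40.2%, 44.5% and 43.8% of all genes. Its median log2 differences were 1.37, 1.26 and 1.25, and without KO SSC replicate 2 the SSC value was 0.93. In the hypoxia list 1 of 14 was called, beside 7.91% of all genes. It was Kdm3a, a histone demethylase gene, with 6.06, 11.1 and 9.35 kb in KO, against 3.64, 6.05 and 5.52 kb in WT. Car9, a hypoxia target, had 12.5, 12.6 and 9.72 kb in KO, against 8.44, 12.6 and 9.38 kb in WT, and was not called.

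Among signalling genes, 1 of 15 in the hedgehog and FGF list was called, beside 7.91% of all genes. It was Spry1, a feedback inhibitor of FGF signalling, with 3.61, 8.03 and 9.54 kb in KO SSC, pBCSP and BCSP, against 0.994, 2.70 and 2.63 kb in WT. Spry1 RNA was 2.04 and 0 CPM (KO SSC), 6.06 and 0.920 CPM (KO pBCSP), 9.52 and 0.482 CPM (KO BCSP), against 4.49 and 7.17 CPM (WT SSC), 12.7 and 10.9 CPM (WT pBCSP), 29.9 and 27.1 CPM (WT BCSP). Its H3K4me1 was longer in KO while its mean RNA was lower in KO in each population. Ptch1, the hedgehog receptor, had 36.6, 35.0 and 31.9 kb in KO, against 28.9, 30.7 and 28.8 kb in WT. In the Notch list 1 of 12 was called, beside the same 7.91%. It was Hey2, a Notch target, with 3.19, 3.78 and 4.09 kb in KO, against 0.700, 1.87 and 2.22 kb in WT. None of 18 Wnt genes and none of 18 BMP and TGF-beta genes was called. Frzb and Sfrp5 encode secreted Wnt inhibitors. Frzb had 9.73, 9.77 and 11.4 kb in KO, against 5.89, 11.01 and 10.96 kb in WT, and Sfrp5 had 8.47, 5.21 and 2.82 kb in KO, against 6.51, 9.96 and 5.29 kb in WT. Sfrp5 was higher in KO SSC and lower in KO pBCSP and KO BCSP than in WT.

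Sorting surface markers had 2 called members of 8, beside 7.91% of all genes. Tek, an angiopoietin receptor gene, had 1.32, 3.94 and 8.80 kb in KO SSC, pBCSP and BCSP, against 0.462, 0.808 and 1.11 kb in WT, and Thy1 had 1.46, 6.18 and 6.46 kb in KO, against 0.801, 2.11 and 1.84 kb in WT, with at most 0.314 CPM of Thy1 RNA in any library. Tek was called neither by share of the list nor in lists of equal number. Skeletal muscle genes had 3 called members of 10 (Pax7, Myf5 and Actn2), beside the same 7.91%. The list did not rise as a whole. Its median log2 ratio was 1.54 in SSC, -0.027 in pBCSP and 0.15 in BCSP, beside 0.75, 0.12 and 0.33 over all genes. In KO pBCSP 5 of the 10 were shorter than in WT, against 21.0% of all genes, and 6 of the 10 had no covered base in WT SSC. Pax7, the factor of muscle satellite cells, had 4.05, 6.72 and 5.44 kb in KO, against 0, 2.29 and 0.754 kb in WT, and at most 0.296 CPM of RNA in any library. Myf5, a muscle determination factor, had 1.22, 1.70 and 2.45 kb in KO, against 0, 0.437 and 0.829 kb in WT. The muscle genes were thus called at short lengths, and Pax7 with almost no RNA. In lists of equal number Pax7 and Myf5 were not called, with mean log2 ratios of 0.51 and 0.035, against 2.27 and 1.39 over the whole lists, and Actn2 was still called. No member of the tendon, leukocyte, erythroid, endothelial and Schwann cell lists was called over the whole lists. Spi1, a leukocyte factor, had 3.81, 4.35 and 6.23 kb in KO, against 1.49, 3.996 and 2.96 kb in WT. Of 12 liver and neuron genes, from tissues absent from a limb, 2 were called, beside the same 7.91%. Snap25 had 0.885, 1.104 and 1.38 kb in KO, against 0, 0 and 0 kb in WT. Syt1 had 8.32, 10.96 and 21.7 kb in KO, against 5.29, 5.001 and 8.39 kb in WT. Alb, the liver albumin gene, had 0, 0.680 and 1.46 kb in KO, against 0, 0.265 and 0.857 kb in WT. These other-tissue genes had a median of 1.76%, 2.60% and 4.013% of their windows covered in KO SSC, pBCSP and BCSP, against 0.495%, 1.86% and 1.42% in WT. Chondrocyte transcription factors had 36.1%, 34.5% and 28.6% in KO, against 20.01%, 32.1% and 22.4% in WT, so the marks of the labelled tissue were far above those of absent tissues.

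Longer H3K4me1 in KO did not go with more RNA. Among the genes called higher, 1056 had at least 1 CPM on average, and their median log2 RNA difference was -0.34, -0.27 and -0.38 in SSC, pBCSP and BCSP, beside -0.20, -0.083 and -0.10 over all genes. RNA was higher in KO for 34.9%, 34.6% and 30.0% of them, against 40.2%, 44.5% and 43.8% of all genes. Without KO SSC replicate 2, the SSC medians were -0.089 for the called genes and -0.022 for all genes.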

How the data were processed

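H3K4me1 was measured by ChIP sequencing, and chromatin had been cut with MNase per the labels. For each library the authors deposited a list of broad peaks in which every peak carries its fold enrichment, its -log10 p-value, its -log10 q-value and a score. Tools named in the submitters' processing notes are MACS2 2.2.6, SAMtools 1.9, Bowtie2 2.3.5.1, featureCounts 2.0.1 and Trim Galore 0.6.6, with the build GRCm38, and cutoffs are not given in the sources. The 12 inputs were not used. The RNA files hold read counts as deposited by the authors, 15495915 to 22670899 per library and 2 libraries a group. They were scaled by TMM in edgeR 4.0.16 (R 4.3.3) and described, with no test, for genes with a mean of at least 1 CPM.

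Intervals were computed in Python 3.11.15 with numpy 2.4.6 and pandas 2.3.3 and tested on simulated lists. Overlap means at least 1 bp. Start sites and spans came from RefSeq GRCm38.p6, matched by symbol. Start sites on chromosome 18 were not used here, so its 26774 peaks were left out of distances. Exons and introns, and sequence around peaks, were not analysed here.

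Members, gene lists and tests were chosen with earlier results of these data known. Named genes were a set list of pathway and cell type genes, the called member with the highest and with the lowest mean log2 ratio in each list, and the 5 highest and 5 lowest called genes with at least 5 kb covered. No gene called lower met that minimum, and 1 of the 5 highest is not reported here. Named outside that rule, after their values were seen, were Wfdc15b, Prss32, Col9a1, Col9a2, Hapln1, Cnmd, Hoxd12, Ly6a, Actn2, Emcn and Foxd3. Named sites were the 2 of each pattern with the highest mean percentile of fold within 50 kb of a start site.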

Additional observations from a re-analysis of the deposited data

Results flagged for a closer look

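In 2 measures KO was above WT in SSC and below WT in pBCSP and BCSP, and this difference between populations was not tested, since each has 1 library per genotype. Median fold at paired peaks, KO minus WT, was 0.209 in SSC, -0.210 in pBCSP and -0.177 in BCSP, and SSC stood 0.402 above the mean of the other two. The median log2 ratio of covered length over cartilage matrix genes was 0.35 in SSC, -0.38 in pBCSP and -0.20 in BCSP, and SSC stood 0.64 above the mean of the other two. WT SSC, the shortest list, enters both SSC values, and its part in them was not tested. Divided by list totals, the cartilage matrix median was -0.56 in SSC, -0.65 in pBCSP and -0.81 in BCSP, all of 1 sign. Genes with at least 25% of their window covered had -0.18, -0.16 and -0.34 by the same measure.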

How the results depend on the processing

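On the mean over populations, covered length, median width and width at paired peaks were higher in KO under every alternative tried. The alternatives of a -log10 q of at least 2, of peaks off H3K4me3 and of RNA without KO SSC replicate 2 were chosen after seeing the data. With a -log10 q of at least 5, the mean log2 ratio of KO over WT was 3.95 for peak number, 4.41 for covered length and 0.43 for median width. The first 2 rest on SSC, where the highest -log10 q of the WT list was 6.90: in SSC, pBCSP and BCSP they were 10.20, 0.32 and 1.33 for peak number and 10.88, 0.51 and 1.85 for covered length. Few WT SSC peaks remained at this setting, and its means include them. The KO minus WT share near start sites was -6.17 points. Of KO peaks 21.0% overlapped a WT peak, and of WT peaks 54.9% a KO peak. This setting left 3 sites in all lists, 403 in KO only and 0 in WT only. It left 833 genes higher and 0 lower in KO, with an RNA difference of -0.11 and an AP-1 share of 33.3%. The AP-1 share, here and below, is over promoter windows covered in every KO and no WT list. Over the whole lists there were 78 such windows, with a share of 5.13%. Their number at the other settings is not given here, so these shares are not read as a difference. With a fold of at least 3, with equal number by fold and with equal number by -log10 p, the log2 ratio was -0.044, 0 and 0 for peak number, which the equal lengths set to 0, and 0.45, 0.41 and 0.42 for median width. In the same order, the difference near start sites was 0.337, 0.00316 and -0.0385 points and over H3K4me3 4.37, 3.58 and 3.55 points, so the H3K4me3 share turned round. Overlapped WT peaks were 76.0, 76.5 and 77.1%, sites in all lists 33221, 32019 and 32751, in KO only 425, 942 and 936 and in WT only 913, 667 and 608. Genes higher in KO were 512, 906 and 908 and lower 28, 41 and 39. Of single genes, Col10a1 (-0.74) and Hoxa13 (-0.88) turned round with equal number by fold. With a reciprocal overlap of 50%, 43.2% of KO and 55.9% of WT peaks overlapped, and 12501 sites were in all lists and 4138 in KO only. With a -log10 q of at least 2, the log2 ratio of peak number was 0.64, 85.3% of WT peaks overlapped, the Spearman correlation of fold was 0.359, and sites in all lists, in KO only and in WT only were 18107, 1115 and 97. Off H3K4me3, the difference near start sites was -0.105 points, 52.1% of KO and 73.5% of WT peaks overlapped, the correlation was 0.375, 19933 sites were in all lists and 483 in WT only, 84 genes were lower and the AP-1 share was 0%. Start sites within 2.5 kb gave -2.60 points. Genes higher in KO were 618 with 5 kb round the start site, 294 with a ratio of 2, 787 with 2 kb added and 355 by share. Genes lower in KO were 1 with 50 kb round the start site, 1 with a ratio of 2, 1 with 2 kb added and 61 by share. The RNA difference was -0.37 with a ratio of 2, -0.34 with 2 kb added and -0.10 with genes of any count. Leaving out each population in turn gave 6974 to 13388 sites in KO only, 590 to 1748 in WT only, 2186 to 5420 genes higher and 7 to 59 lower, and an RNA difference of -0.20 to -0.10; requiring fewer lists raises such counts by construction. For the other changes the cause was not tested. The exact permutation test paired KO with WT within populations. By replicate number, no paired analysis was possible because each group had 1 H3K4me1 library and the RNA values were given with no test. Sequence in 500 bases around sites was not run, and 300-base promoter windows were used in its place. The lists do not give the read depth, so no floor can be set for a site that was not called.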
